A study of Mus musculus with 36 samples.

Results

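5-Hydroxymethylcytosine (5hmC) was compared between 12 and 4 weeks in cartilage of the knee that was not operated on, in mice in which surgery on the other knee (destabilization of the medial meniscus, DMM) served to model osteoarthritis. Every value was obtained from a pair of libraries made from the same DNA by reduced representation oxidative bisulfite sequencing. The BS library reads 5-methylcytosine (5mC) and 5hmC alike as methylated, the oxBS library reads only 5mC, and 5hmC is the BS level minus the oxBS level in percentage points. The comparison used 3 pairs of week 12 and 3 pairs of week 4. It was limited to autosomal CpG cytosines with at least 10 reads in all 12 files, which left 1175518 cytosines out of 2565118 listed in any of these files and 2755477 listed in any of the 24 methylation files of the series.

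The animals were male C57BL/6J mice that were 12 weeks old at surgery, so that control knees were collected at 16 and 24 weeks of age. The control was the left leg of mice with a DMM right leg, and mice without surgery were not part of either group. Cartilage of 3 knees was pooled for each DNA sample, and RNA came from other mice. The labels name tibial and femoral plateaus as the source, and the RNA protocol of the study names tibial plateaus and femoral condyles. Week and age change together in this design, and the libraries were handled in pools of 6 whose make-up the sources used here do not give, so week, age and library pool cannot be told apart.

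5hmC is made from 5mC by the TET enzymes (Tet1, Tet2 and Tet3), which use oxygen, iron and 2-oxoglutarate. It is an intermediate of active demethylation and can also persist as a mark of its own, typically in the bodies of expressed genes and at enhancers and rarely at unmethylated CpG island promoters. In chondrocytes, the cells of cartilage, it has been studied because its amount changes during differentiation and in osteoarthritis.

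Mean 5hmC over the 1175518 cytosines was lower at 12 weeks than at 4 weeks. The 4-week pairs held 1.66, 2.68 and 2.23 percentage points and the 12-week pairs 1.54, 1.63 and 1.42. The groups did not overlap, but replicate 1 of week 4 lay next to replicate 2 of week 12. The means were 2.19 ± 0.513 (SD, n = 3) and 1.53 ± 0.102 (SD, n = 3), a difference of -0.657 points or -30.0%. The exact two-sided permutation test gave p = 0.1, which is the smallest value that 3 pairs against 3 allow. Replicate 2 of week 4 held the highest value, and without it the difference was -0.411 points. With negative differences at single cytosines set to 0, the difference was -0.267 points and the exact permutation p was 0.4. With the BS and oxBS levels each weighted by their own reads before subtraction, the means were 4.55 and 3.87 points. That was a change of -14.9% (exact permutation p = 0.4, n = 3 and 3), and the groups overlapped. A cytosine then has unlike weights in the BS and oxBS arms, so coverage enters this value and it is not a weighted mean of 5hmC per cytosine.

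BS levels averaged 31.7%, 31.0% and 31.2% at 4 weeks and 31.3%, 31.2% and 31.6% at 12 weeks, a difference of 0.0511 points (exact permutation p = 0.8, n = 3 and 3). oxBS levels were 30.1%, 28.4% and 28.99% at 4 weeks and 29.8%, 29.6% and 30.2% at 12 weeks, a difference of 0.708 points (exact permutation p = 0.3, n = 3 and 3). The oxBS groups overlapped because replicate 1 of week 4 sat among the 12-week samples. 5hmC made up 5.22%, 8.64% and 7.14% of the BS level at 4 weeks and 4.92%, 5.22% and 4.51% at 12 weeks, and these groups overlapped (exact permutation p = 0.2, n = 3 and 3).

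**Figure D1:**
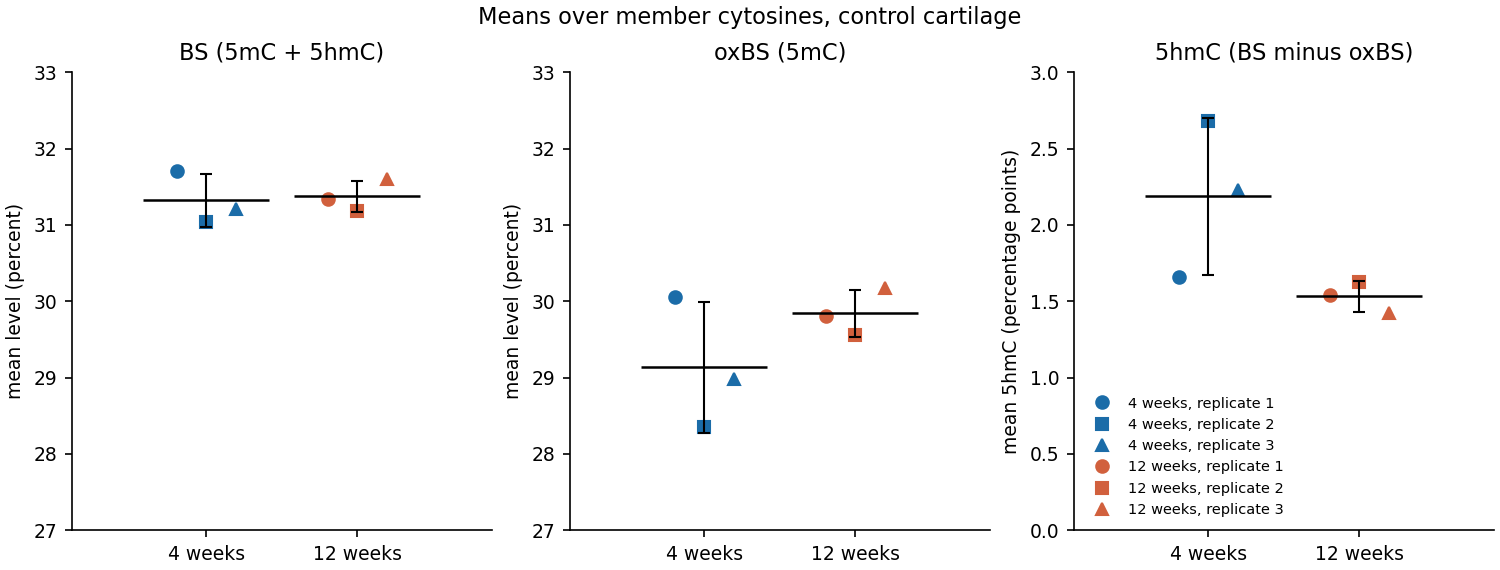
Mean BS level and mean oxBS level in percent (both axes start at 27) and mean 5hmC in percentage points (axis from 0), with 1 point per sample and bars for mean and SD of 3 samples. The BS means of the weeks lie on top of each other, and the 3 samples of 12 weeks have 5hmC of 1.42 to 1.63 points, all below those of 4 weeks.

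The libraries differed in other ways, some of which ran with the week. Median coverage of the cytosines studied was 131 and 153 reads in the BS and oxBS libraries of replicate 2 of week 4, against 40 to 53 in the other 4-week libraries and 21 to 56 in the 12-week libraries, so that the weeks overlapped. Mitochondrial DNA, where hardly any methylation is anticipated, still read as C in 0.582% to 0.727% of calls in the 4-week libraries and 0.301% to 0.364% in the 12-week libraries, nearly alike in both arms of a pair (BS minus oxBS of -0.0227 to 0.0651 points). Promoters of blood and marrow marker genes held 5mC of 10.6%, 12.9% and 11.9% at 4 weeks and 9.65%, 9.56% and 9.41% at 12 weeks (13 of 22 genes measured). Promoters of chondrocyte marker genes held 5mC of 5.04%, 3.11% and 4.12% at 4 weeks and 4.87%, 4.81% and 5.47% at 12 weeks (12 of 14 genes measured), and here the weeks overlapped. The sample with the most 5hmC was thus also the deepest, the lowest in 5mC at chondrocyte promoters and the highest at blood and marrow promoters, and the part of these differences in the 5hmC result was not tested. In such bulk samples, fewer cells of a type and less 5hmC per cell cannot be told apart. In 5 of 6 pairs, the deviations of the BS library from the mean profile correlated best with those of its own oxBS library. In the remaining pair, replicate 3 of week 4, they correlated better with the oxBS library of replicate 2 of that week (r = 0.249) than with its own (r = 0.115), and without this pair the difference in mean 5hmC was -0.637 points.

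The RNA libraries of control cartilage held transcripts of all 14 chondrocyte markers, with a summed level of 2374 to 5709 CPM (counts scaled to the total of each library), among them Col2a1, Acan and Comp. They also held skeletal muscle markers at 123 to 21819 CPM (16 of 16 genes), blood and marrow markers at 5658 to 18806 CPM (20 of 22) and bone markers at 5813 to 11657 CPM (8 of 9). Fibroblast and synovium markers (9 of 9) stood at 6219 to 16847 CPM, endothelium markers (8 of 8) at 117 to 208 CPM and adipocyte markers (6 of 6) at 102 to 180 CPM, with Lep at 0 in 2 of the 12-week libraries. The summed levels of each of these lists overlapped between weeks, but some single markers did not. Of 20 blood and marrow markers 7 were higher in all 12-week than in all 4-week libraries and 0 lower, among them Mpo and Elane of granulocyte precursors. The means at 4 and 12 weeks were 1557 and 4103 CPM for Mpo and 555 and 1269 CPM for Elane. Of 8 bone markers Col1a1 (means of 1938 CPM at 4 weeks and 5807 CPM at 12 weeks) and Dmp1 were higher and Ibsp lower. Of 16 muscle markers 2 were lower, and of 9 fibroblast markers 1 was higher and 4 lower. Of the 14 chondrocyte markers 1 was lower, Sox6, with 51.0, 39.6 and 49.3 CPM against 34.7, 39.1 and 36.4 CPM. Over all 18258 genes counted, 12.5% were higher and 10.5% lower in this sense, and over the 13083 with a mean of at least 1 CPM 15.2% and 11.9%. The RNA mice were not the DNA mice, and the part of these cells in the 5hmC result was not tested.

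The lower 5hmC at 12 weeks lay at cytosines that carry methylation. Cytosines were sorted by their 5mC level in the operated limb, whose libraries are not part of the comparison. At the 662897 cytosines with under 5% 5mC, 5hmC was 0.043, 0.0737 and 0.0605 points at 4 weeks and 0.0634, 0.0802 and 0.0614 points at 12 weeks, and the groups overlapped. At the 244664 cytosines with 20% to 80%, it was 5.43, 8.90 and 7.34 points against 4.98, 5.25 and 4.60 points. The group means were 7.22 and 4.94 points, and no 12-week sample reached the lowest 4-week sample. Without replicate 2 of week 4 the difference went from -2.28 to -1.44 points. At the 212607 cytosines over 80%, it was 2.23, 3.54 and 2.99 points against 2.05, 2.14 and 1.88 points. At the 55341 cytosines between 5% and 20%, the means were 2.63 and 2.08 points and the groups overlapped. Without replicate 2 of week 4 these differences went from -0.895 to -0.586 points over 80% and from -0.552 to -0.301 points between 5% and 20%. The relative change was -31.5% at intermediate and -30.7% at high 5mC, and no exact permutation p of these classes could be under 0.1.

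The same order held for places in the genome. Promoters, taken as 1000 bp on either side of a transcript start, held 594778 of the cytosines studied (50.6%) but little 5hmC, with means of 0.283 points at 4 weeks and 0.227 points at 12 weeks and overlapping groups. Introns held the most 5hmC of the places compared, with 3.93, 6.36 and 5.28 points at 4 weeks and 3.64, 3.795 and 3.35 points at 12 weeks. The 12-week samples were again all below the 4-week samples, and the change was -30.7%. Without replicate 2 of week 4 the difference in introns went from -1.59 to -1.01 points, in exons from -1.10 to -0.680 points, and in promoters from -0.0564 to -0.0215 points. Exons had means of 3.66 and 2.57 points, with overlapping groups. Sequence within 10000 bp of a gene had means of 3.63 and 2.55 points and sequence farther from genes 3.37 and 2.30 points, and without that replicate the differences were -0.683 and -0.707 points. Among cytosines of 20% to 80% 5mC alone, introns still held 8.36 and 5.71 points and sequence far from genes 5.86 and 3.99 points. The relative change lay between -29.4% and -32.0% in the 5 places of that class.

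**Figure D2:**
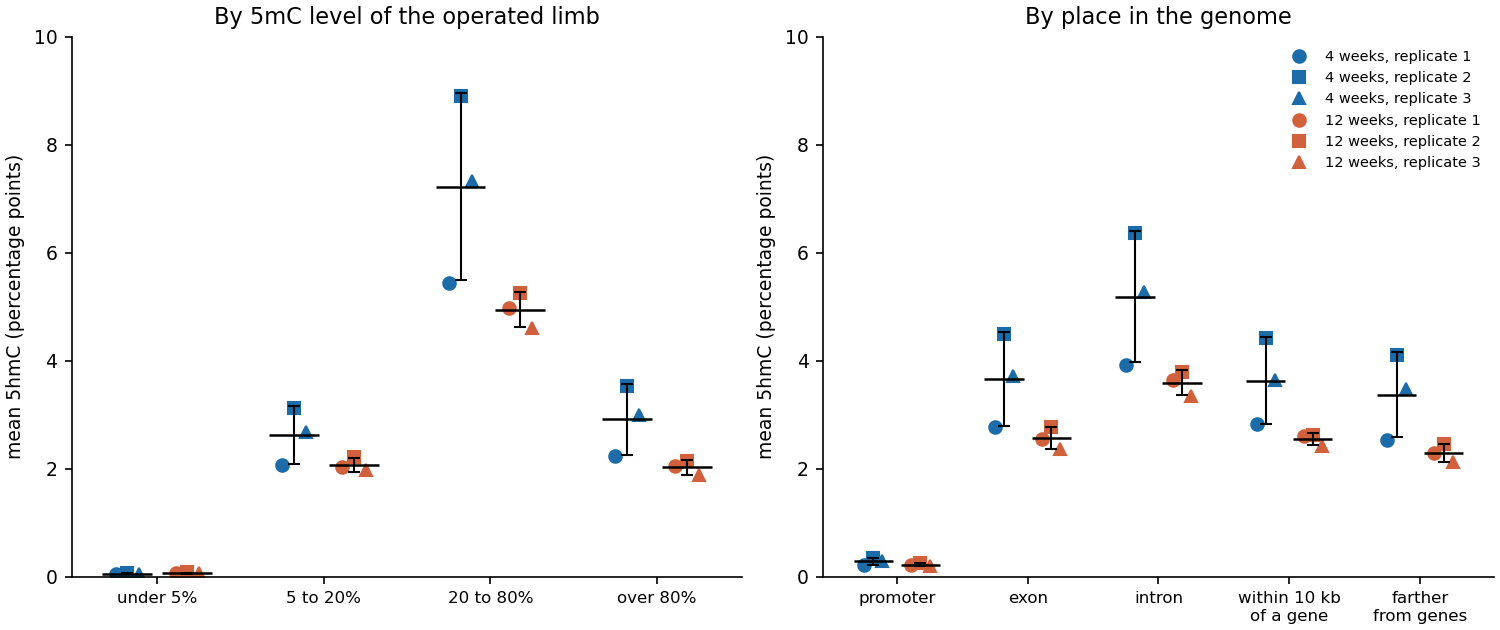
Mean 5hmC in percentage points per sample, sorted by the 5mC level of the operated limb and by place in the genome, with bars for mean and SD of 3 samples. Cytosines of 20% to 80% 5mC and introns hold the most 5hmC in every sample, and those under 5% hold at most 0.0802 points.

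Around transcript starts, 5hmC formed a trough that followed the trough of 5mC. In the 200 bp after a start it averaged 0.117 points at 4 weeks and 0.10 points at 12 weeks, and at 10000 to 20000 bp after a start 4.90 and 3.46 points. 5mC was 2.21% and 1.99% next to the start and 61.7% and 63.7% at that distance. The weeks overlapped in 5hmC within 400 bp of a start and were apart in each bin from 2000 to 20000 bp after it. The 4-week samples were not evenly spread in this profile: replicate 1 ran close to the 12-week samples, and beyond 400 bp replicates 2 and 3 ran above them.

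**Figure D3:**
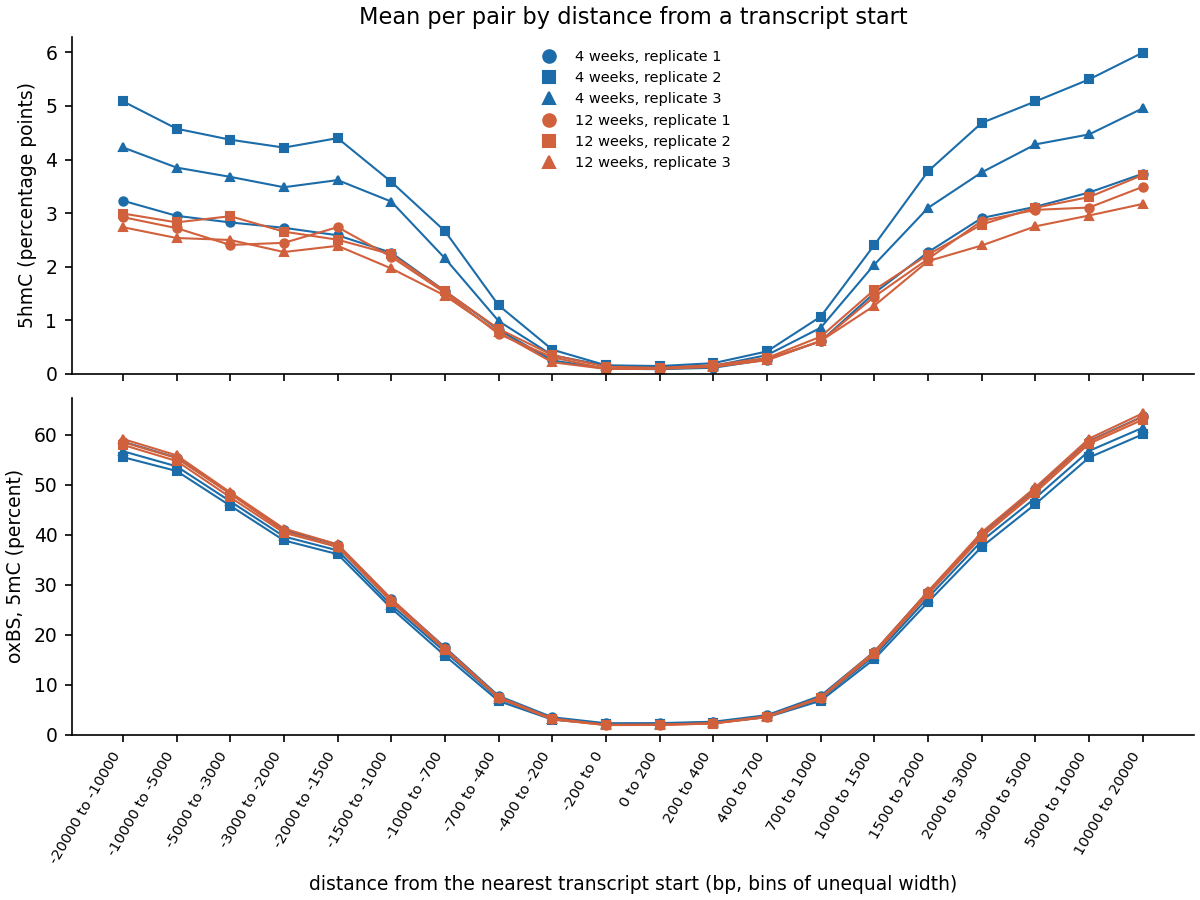
Mean 5hmC in percentage points (upper) and mean oxBS level in percent (lower) against the distance from the nearest transcript start in bp, in bins of unequal width, with 1 line per sample. Both fall to their lowest within 400 bp of the start, and beyond 400 bp replicates 2 and 3 of week 4 have more 5hmC than the other 4 samples.

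Sparse CpGs carried more 5hmC than dense ones. Cytosines with 1 to 4 CpGs within 100 bp held 5.71 points at 4 weeks and 3.91 points at 12 weeks, and those with 20 or more CpGs 0.0547 and 0.0607 points. Cytosines inside the CCGG site that MspI cuts changed from 3.59 to 2.39 points, and those outside it from 1.44 to 1.07 points. Among cytosines of 20% to 80% 5mC alone the gap was smaller, with 7.65 and 5.03 points inside and 6.67 and 4.83 points outside. In both comparisons the weeks did not overlap inside CCGG sites and overlapped outside them. Over all cytosines outside them, replicate 1 of week 4 held 1.09 points and replicate 2 of week 12 held 1.13 points.

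Gene-body 5hmC was weakly correlated with RNA level in every sample. Gene bodies (from 1000 bp after the transcript start to the end of the gene, at least 10 cytosines) were ranked by RNA counts per kilobase of transcript in control cartilage and split into 4 groups of 2057 or 2058 genes. The group with the least RNA had means of 2.84 points at 4 weeks and 1.96 points at 12 weeks, the next groups 4.41 and 3.07 points and 5.02 and 3.55 points, and the group with the most 5.43 and 3.76 points. Spearman's rank correlation between gene-body 5hmC and RNA across 8231 genes was 0.249, 0.313 and 0.268 in the 4-week samples and 0.248, 0.219 and 0.210 in the 12-week samples. Genes are not independent replicates, the RNA came from other mice, and no test was made. Gene-body 5mC also differed between the groups, with means of 52.6%, 57.1%, 59.5% and 58.3% from the least to the most RNA. The change from 4 to 12 weeks was between -29.3% and -31.1% in all 4 groups.

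Over 8697 gene bodies, 6711 had a lower and 1986 a higher mean at 12 weeks, with a median difference of -1.12 points. In 1397 gene bodies (16.1%) all 12-week samples were below all 4-week samples, and in 103 (1.18%) all were above. limma's moderated test called 0 gene bodies at a Benjamini-Hochberg adjusted p under 0.05. At an unadjusted p under 0.05 there were 1130, of which 1104 were lower at 12 weeks. Once each sample was centred on its mean, 769 gene bodies had an unadjusted p under 0.05 and 442 of them were lower, and after division by the mean there were 542, of which 281 were lower. Without replicate 2 of week 4 there were 647, of which 582 were lower, and the median difference was -0.659 points. On simulated data, limma recovered few of the changed gene bodies and, when all cytosines were tested, hardly any of the changed cytosines. The simulated spread between pairs was set in advance, drawn for each cytosine alone and without a shift of whole pairs. It thus does not give the power in these samples, and 0 calls do not show that values did not differ.

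The 5 lower gene bodies with the smallest p were Fntb, Sgms2, Map3k14, Loxl1 and Esr1, each at a limma adjusted p of 0.275. Fntb, which encodes the beta subunit of protein farnesyltransferase (chr12:76837467-76921412, plus strand), held 12.6, 11.3 and 10.1 points at 4 weeks and 5.04, 3.54 and 3.45 points at 12 weeks over 29 cytosines. The difference was -7.33 ± 1.05 points (SE), and its 5mC was 63.6% and 71.5%. Loxl1, a lysyl oxidase that crosslinks elastin (chr9:58287723-58313212, minus strand), held 11.5, 13.0 and 9.98 points against 6.26, 3.93 and 3.38 points over 55 cytosines, a difference of -6.99 ± 1.10 points (SE). In both genes the lowest 4-week sample lay well above the highest 12-week sample. Sgms2, a sphingomyelin synthase, had means of 8.47 and 4.91 points over 92 cytosines. Map3k14, the kinase that starts noncanonical NF-kappaB signalling, had 8.51 and 3.84 points over 57 cytosines. Esr1, the estrogen receptor alpha, had 5.39 and 1.85 points over 99 cytosines. In the operated limb, whose samples are separate libraries of the other knee, these 5 genes also had lower means at 12 weeks, with differences from -3.91 points in Map3k14 to -1.97 points in Esr1. Of all gene bodies measured there, 6229 of 8345 were lower at 12 weeks.

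The exon-free stretches of 150 bases with the most CpGs studied in the bodies of Fntb and Loxl1 are shown to give the setting of these values, on the strand of the gene in GRCm38.p6 with the CpGs studied in capitals. Both are poor in CpGs, and the capitals that stand in ccgg are cut sites of MspI.
Fntb intron, chr12:76861970-76862119: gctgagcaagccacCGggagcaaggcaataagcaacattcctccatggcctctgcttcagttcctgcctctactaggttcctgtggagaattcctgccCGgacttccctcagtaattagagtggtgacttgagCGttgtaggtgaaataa
Loxl1 intron, chr9:58299702-58299851: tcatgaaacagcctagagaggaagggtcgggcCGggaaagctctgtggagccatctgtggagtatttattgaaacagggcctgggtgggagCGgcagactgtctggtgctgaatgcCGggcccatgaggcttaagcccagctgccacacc
The Fntb stretch held 24.04, 18.8 and 17.1 points at 4 weeks and 8.17, 10.02 and 18.6 points at 12 weeks over 4 cytosines, and the Loxl1 stretch 14.6, 20.9 and 11.3 points against 16.1, 2.83 and 5.10 points over 3 cytosines. At this small scale the weeks overlapped in both.

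The 5 higher gene bodies with the smallest p were Arhgap9, Epha6, Mrps27, Slc26a11 and S1pr5. Arhgap9, a GTPase activating protein of blood cells (chr10:127321964-127329947, plus strand), held -4.33, -1.11 and -5.11 points at 4 weeks and 0.815, 2.44 and 1.32 points at 12 weeks over 65 cytosines, a difference of 5.04 ± 1.13 points (SE, limma adjusted p = 0.275). The 4-week values below 0 mean that oxBS exceeded BS, which 5hmC cannot produce. Epha6, an ephrin receptor, had means of 0.179 and 4.202 points, and Mrps27, a protein of the mitochondrial ribosome, 1.89 and 5.65 points. Slc26a11, an anion transporter, had 1.05 and 4.44 points, and S1pr5, a sphingosine 1-phosphate receptor, had -0.0847 and 2.61 points (limma adjusted p = 0.286). In the operated limb Arhgap9 and S1pr5 were higher at 12 weeks by 1.25 and 0.201 points, and Epha6, Mrps27 and Slc26a11 differed by -1.65, -0.851 and -1.29 points.

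**Figure D4:**
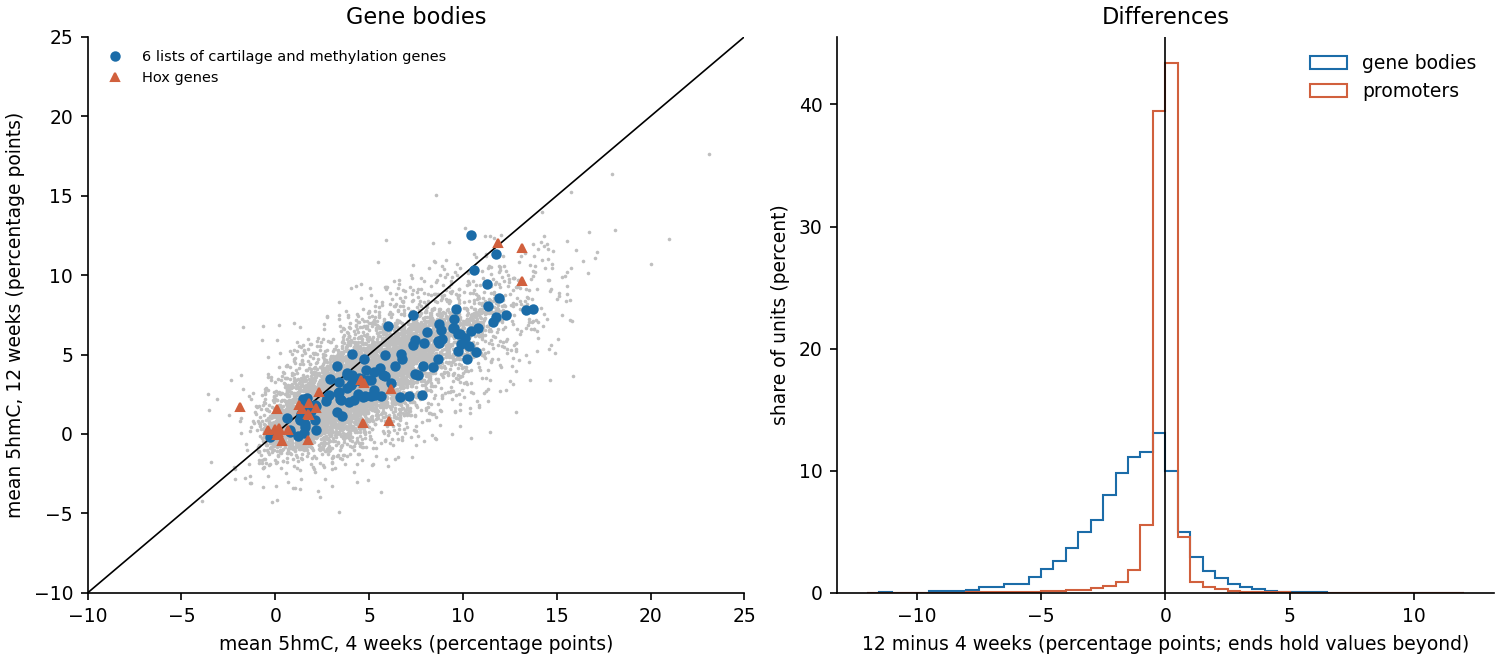
Left, mean 5hmC of 8697 gene bodies at 12 weeks against 4 weeks, in percentage points, with the line of equal values and the genes of the 7 lists in colour. Right, share of gene bodies and of 13104 promoters by their difference, in bins of 0.5 points. Gene bodies centre on -1.12 points and promoters near 0.

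Genes of 7 lists were followed in full, and none of their gene bodies or promoters was called by limma. All 14 measured gene bodies of the cartilage matrix list (27 genes) were lower at 12 weeks, against 77.2% of all gene bodies. The median difference was -2.32 points against -1.12 points over all gene bodies, but the list started from a higher level. Its 4-week median was 9.12 points against 3.95 over all, and the relative change of the mean was -35.8% against -30.5%. In 3 of them all 12-week samples were below all 4-week samples (16.1% of all gene bodies), and 4 had an unadjusted p under 0.05, as did 1130 of all 8697 gene bodies. After centring on the mean of each sample 10 of the 14 were lower (3919 of all 8697 gene bodies). After division by it 8 of the 14 were lower (4309 of all gene bodies). Their 5mC was higher at 12 weeks in 11 of 14 genes (78.6%, against 76.2% of all gene bodies), with means of 52.1%, 48.7% and 50.6% at 4 weeks and 53.6%, 54.2% and 55.9% at 12 weeks. Over all gene bodies 5mC was 57.3%, 54.1% and 55.3% at 4 weeks and 57.2%, 56.7% and 57.8% at 12 weeks.

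Cilp2 and Comp had the most cytosines in this list. Cilp2, a secreted protein of the cartilage matrix, held 7.33, 9.25 and 9.66 points at 4 weeks and 7.25, 7.66 and 5.87 points at 12 weeks over 151 cytosines (limma difference -1.815 ± 0.790, SE, adjusted p = 0.395). Comp, a pentameric matrix protein that binds collagens, held 2.27, 4.63 and 3.26 points against 2.80, 4.39 and 2.54 points over 123 cytosines, with a difference of -0.144 points that was smaller than its SE of 0.8004. The weeks overlapped in both genes.

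Other matrix genes were chosen after their values were seen. Col11a2, a chain of the fibrillar collagen XI, held 8.88, 11.6 and 10.1 points against 8.24, 2.47 and 3.36 points (-5.50 ± 1.57, SE, limma adjusted p = 0.282). Cilp, the cartilage intermediate layer protein, held 8.66, 10.9 and 9.68 points against 4.51, 7.90 and 6.38 points (-3.48 ± 1.08, SE, limma adjusted p = 0.300). The weeks were apart in both. Acan, which encodes aggrecan, the main proteoglycan of cartilage, held 7.47, 14.3 and 10.4 points against 9.21, 5.10 and 1.26 points, and the weeks overlapped. Col2a1, the main collagen of cartilage, held 2.81, 3.96 and 3.62 points against 2.78, 3.41 and 0.5002 points, and its difference changed sign when each sample was centred on its mean. Their 5mC was 56.8% and 62.5% for Acan and 35.1% and 42.3% for Col2a1 at 4 and 12 weeks.

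Of the chondrocyte transcription factors, all 23 genes were measured. Here 20 gene bodies were lower (87.0%, against 77.2% of all gene bodies) and 3 higher, with a median of -1.48 points. In 4 of them all 12-week samples were below all 4-week samples (16.1% of all gene bodies). Centring left 12 lower and 11 higher, and division by the mean 10 lower and 13 higher. Runx1, which acts early in chondrocyte differentiation, held 4.63, 6.85 and 6.07 points against 4.75, 3.62 and 2.52 points over 257 cytosines. Runx3, its relative, held 2.92, 3.18 and 2.54 points against 2.82, 1.40 and 3.22 points over 256 cytosines. Sox5 and Sox6, partners of Sox9 at cartilage enhancers, were chosen after their values were seen. Sox5 held 7.38, 13.0 and 9.97 points against 6.47, 5.57 and 6.08 points, and Sox6 3.44, 6.67 and 5.18 points against 2.45, 2.93 and 1.81 points. The weeks were apart in Sox5 and Sox6 and overlapped in Runx1 and Runx3, and the limma adjusted p was 0.300 for both Sox genes.

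Hypertrophy and ossification genes, which mark the change of chondrocytes towards bone, had 14 of 20 gene bodies measured. Of these 11 were lower (78.6%, against 77.2% of all gene bodies) and 3 higher (median -1.22 points). In 6 all 12-week samples were below all 4-week samples (16.1% of all gene bodies). Centring left 6 lower and 8 higher, and division by the mean 9 lower and 5 higher. Pth1r, the receptor of parathyroid hormone, held 1.11, 2.23 and 1.36 points against 0.845, -0.0208 and 0.506 points over 126 cytosines, and the weeks were apart. Bmp6 and Ank were chosen after their values were seen. Bmp6, a bone morphogenetic protein, held 7.88, 8.95 and 8.42 points against 2.93, 5.42 and 4.32 points. Ank, a pyrophosphate transporter that opposes calcification, held 10.6, 17.1 and 13.5 points against 7.22, 10.7 and 5.64 points, the highest 12-week sample just above the lowest 4-week sample.

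Matrix proteases and their inhibitors had 20 of 23 gene bodies measured, with 18 lower and 2 higher (median -1.86 points) and 6 in which all 12-week samples were below (77.2% and 16.1% of all gene bodies). Division by the mean of each sample left 10 lower and 10 higher, and centring 12 lower and 8 higher. Adamts2, which removes the N-propeptide of fibrillar collagens, held 3.55, 4.94 and 3.85 points against 3.09, 3.24 and 3.25 points over 160 cytosines. Adamts17, a metalloprotease of connective tissue, held 4.36, 5.96 and 5.44 points against 3.18, 4.86 and 3.64 points over 129 cytosines. Mmp14, a membrane-bound collagenase, was chosen after its values were seen and held 6.69, 9.04 and 7.74 points against 2.55, 1.39 and 3.48 points (-5.35 ± 0.908, SE, limma adjusted p = 0.275). In the operated limb its means were 8.09 and 8.02 points.

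Signalling genes (30 of 32 measured) had 24 lower and 6 higher gene bodies, with a median of -1.62 points, and in 9 all 12-week samples were below all 4-week samples (16.1% of all gene bodies). After centring 17 were lower, and after division by the mean 15. Tcf7l2, a transcription factor of the Wnt pathway, held 4.38, 8.24 and 6.48 points against 3.81, 4.67 and 4.39 points over 236 cytosines, and Wnt5b, a noncanonical Wnt ligand, 1.24, 2.39 and 1.73 points against 1.80, 1.46 and 1.53 points over 192 cytosines. Ltbp2, Smad3 and Tgfbr2 were chosen after their values were seen. Ltbp2, a matrix protein related to the binding proteins of latent TGF-beta, held 6.72, 8.62 and 6.95 points against 4.23, 3.98 and 3.14 points (limma adjusted p = 0.275). Smad3, which carries TGF-beta signals to the nucleus, held 9.63, 12.1 and 13.1 points against 8.43, 6.44 and 6.22 points, and Tgfbr2, the type II receptor, 10.6, 16.2 and 13.2 points against 7.21, 6.61 and 9.53 points. The weeks were apart in these 3 genes and overlapped in others of the same pathway, such as the ligand Tgfb1 (difference of 0.771 points) and the inhibitor Smad7 (-0.0146 points).

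Genes that write, read or erase DNA methylation had 11 of 17 gene bodies measured, and all 11 were lower at 12 weeks (median -1.43 points), against 77.2% of all gene bodies. In 3 all 12-week samples were below all 4-week samples (16.1% of all gene bodies). Centring left 6 lower and 5 higher, and division by the mean 5 lower and 6 higher (median 0.21). In the operated limb 6 of these 11 gene bodies were lower and 5 higher at 12 weeks, with a median of -0.359 points (6229 of 8345 lower over all gene bodies). Tet3 held 4.18, 6.93 and 5.55 points against 3.98, 4.82 and 3.58 points over 143 cytosines, and Dnmt1, the maintenance methyltransferase, 2.13, 3.58 and 2.33 points against 3.02, 2.13 and 1.11 points over 120 cytosines. Idh2, the mitochondrial enzyme that makes 2-oxoglutarate, was chosen after its values were seen and held 8.81, 9.996 and 10.4 points against 6.80, 4.28 and 4.64 points (limma adjusted p = 0.275).

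Hox genes, which pattern the limb, were near balance by count, while 77.2% of all gene bodies were lower. Their gene bodies held 5mC of 14.25% and 14.37% at 4 and 12 weeks, against 55.58% and 57.25% over all gene bodies. Mean 5hmC of these Hox gene bodies went from 3.005 to 2.315 points (-22.9%, against -30.5% over all gene bodies). Of 39 genes, 26 gene bodies were measured, and 14 were lower and 12 higher, with a median of -0.299 points. Centring turned the median to 1.04 points with 7 lower and 19 higher, and division by the mean gave 0.118 points. Hoxa3 held 2.97, 6.65 and 4.63 points against 3.77, 1.83 and 4.03 points over 368 cytosines, and Hoxd3 2.98, 5.74 and 4.95 points against 3.10, 3.87 and 3.14 points over 248 cytosines. In 3 all 12-week samples were below all 4-week samples and in 1, Hoxc13, all were above (16.1% and 1.18% of all gene bodies). Hoxd4, of the 3, and Hoxc13 were chosen after their values were seen. Hoxd4 lies inside the span of Hoxd3, so these gene bodies share cytosines. Hoxd4 held 3.84, 5.25 and 4.90 points against 0.228, 3.803 and -2.03 points, and Hoxc13 -3.15, -0.352 and -2.11 points against 1.61, 2.20 and 1.37 points. The 4-week values of Hoxc13 were all below 0, and in the operated limb its difference was -0.288 points. Of the 26 Hox gene bodies, 21 were lower at 12 weeks in that limb (6229 of 8345 over all gene bodies).

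Over 13104 promoters with at least 10 cytosines, 6546 were lower and 6558 higher at 12 weeks, with a median difference of 0.000258 points. In 720 (5.49%) all 12-week samples were below all 4-week samples, and in 691 (5.27%) all were above. limma called 0 promoters, and 673 had an unadjusted p under 0.05, of which 427 were lower. Among the 1669 promoters with a mean level of at least 5% the median was -0.350 points, and 92 of the 110 with an unadjusted p under 0.05 were lower. With negative values set to 0 the median over all promoters was -0.126 points, and 1096 of the 1273 with an unadjusted p under 0.05 were lower. In the 7 lists, 0 to 4 promoters a list lay wholly below and 0 to 2 wholly above.

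The promoter with the smallest p was that of Ddr1, a receptor tyrosine kinase for collagen (gene at chr17:35681567-35704599, minus strand), with 2.69, 2.67 and 2.69 points at 4 weeks and 1.55, 1.37 and 1.62 points at 12 weeks over 76 cytosines (-1.17 ± 0.113, SE, limma adjusted p = 0.253). The spread within each week was small against the difference, but it was chosen among 13104 promoters. Grm7, a glutamate receptor, had means of 0.338 and -2.17 points (limma adjusted p = 0.253), Rln3, the hormone relaxin 3, 3.11 and -9.38 points, and Mafa, a transcription factor of beta cells, 0.478 and -0.167 points. The 12-week means of Grm7, Rln3 and Mafa were below 0. Among the higher promoters, Rara, the retinoic acid receptor alpha, held 0.176, 0.178 and 0.169 points against 0.562, 0.694 and 0.761 points over 122 cytosines (limma adjusted p = 0.943). The others were Pcdh8, a protocadherin, with means of -0.0980 and 1.15 points, C1ql3, a secreted synaptic protein, with 1.10 and 2.25 points, Arhgap9 with -1.33 and 3.28 points, and Whrn, a scaffold of hair cells, with -0.143 and 0.344 points.

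Single cytosines were tested on pooled reads with the criteria named in the study's methods, 25 or more points of difference at a q under 0.05. Of 1175518 cytosines, 334 (0.0284%) were called lower and 63 (0.00536%) higher at 12 weeks. That count sets negative reads of BS minus oxBS to 0, and a Wald test of the difference with negative values kept called 19 lower and 2 higher, while with at least 20 reads in every library 52 were lower and 2 higher. The pooled test treats the reads of a week as one sample. Once the spread between samples entered the same test it called 0 (37100 had an unadjusted p under 0.05), and limma on the pairs also called 0, with 55269 at an unadjusted p under 0.05 of which 36146 were lower. Of all cytosines, 4.49% had all 12-week samples below all 4-week samples and 2.68% had all above, against 255 of the 334 and 50 of the 63. Those counts follow from the choice of large differences and carry no test. With 1 sample left out the pooled test called 618 to 1410 cytosines, and without replicate 1 of week 12 the majority turned (769 higher and 641 lower).

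A call needs a difference of at least 25 points, which cytosines near 0% methylation can hardly reach, so the places of the called cytosines are in large part set by this rule and are given as a description. Introns held 55.9% of them against 18.2% of all cytosines studied, and promoters 5.54% against 50.6%. In the operated limb 98.5% had 20% to 80% 5mC, against 20.8% of all. A coverage under 20 reads in at least 1 file was found at 86.4% of the called cytosines and 50.8% of all. In 248 of the 334 lower and 54 of the 63 higher calls, at least 1 sample had oxBS above BS.

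The largest differences among called cytosines whose weeks were apart are shown with 30 bases on each side, read on the strand of the cytosine in GRCm38.p6, with the CpG that holds it in capitals. The first 5 were lower and the last 5 higher at 12 weeks. None of the opposite cytosines of these CpGs had enough reads to be studied.
Spsb1 intron, chr4:149940715-149940775, minus strand: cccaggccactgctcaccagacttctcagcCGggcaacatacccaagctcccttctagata
Irf2 intron, chr8:46783361-46783421, minus strand: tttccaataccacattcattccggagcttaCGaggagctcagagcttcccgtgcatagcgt
Il10rb intron, chr16:91407959-91408019, plus strand: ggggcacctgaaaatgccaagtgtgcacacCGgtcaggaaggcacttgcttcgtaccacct
Arid3a intron, chr10:79932429-79932489, plus strand: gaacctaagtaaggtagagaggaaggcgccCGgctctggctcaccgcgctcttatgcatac
Rab31 intron, chr17:65724189-65724249, plus strand: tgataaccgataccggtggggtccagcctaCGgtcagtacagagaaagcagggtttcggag
Lgr6 intron, chr1:135031248-135031308, plus strand: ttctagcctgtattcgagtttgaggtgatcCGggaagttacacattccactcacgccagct
Spsb1 intron, chr4:149951327-149951387, minus strand: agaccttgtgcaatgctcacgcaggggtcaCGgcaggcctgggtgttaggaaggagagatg
Tns2 coding exon, chr15:102111442-102111502, minus strand: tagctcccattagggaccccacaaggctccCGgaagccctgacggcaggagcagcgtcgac
Intergenic, 42420 bp from 4930483O08Rik, chr7:133184847-133184907, minus strand: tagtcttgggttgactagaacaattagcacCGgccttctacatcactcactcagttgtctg
U2af1 intron, chr17:31652206-31652266, plus strand: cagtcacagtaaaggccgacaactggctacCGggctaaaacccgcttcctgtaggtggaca

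The Arid3a cytosine, in an intron of a gene for a DNA-binding protein of B cells (position 79932459), held 35.3, 45.7 and 33.3 points at 4 weeks and 4.13, 9.43 and -3.44 points at 12 weeks. Its BS levels were 93.4%, 95.7% and 86.7% against 76.5%, 88.0% and 80.8%, and its oxBS levels 58.1%, 50% and 53.3% against 72.3%, 78.6% and 84.2%, at 14 to 116 reads a library. The Irf2 cytosine, in the gene of an interferon regulatory factor (position 46783391), held 40.0, 46.2 and 32.9 points against 3.17, -23.9 and -7.14 points. The Rab31 cytosine, in the gene of a small GTPase of membrane traffic (position 65724219), held 52.9, 30.1 and 50.5 points against 3.45, 12.1 and 8.08 points. The Il10rb cytosine, in the gene of a chain of the interleukin-10 receptor, had a pooled-read difference of -37.6 points, and the lower Spsb1 cytosine, in the gene of an adaptor of a ubiquitin ligase, -45.5 points. The 12-week values of all but the Rab31 cytosine included at least 1 below 0.

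The Lgr6 cytosine, in the gene of a receptor for R-spondins that amplify Wnt signals (position 135031278), held -3.51, 3.32 and 6.19 points at 4 weeks and 33.9, 50 and 37.0 points at 12 weeks. Its oxBS levels were 66.7%, 40.9% and 48.6% against 37.2%, 42.9% and 32.3%. The Tns2 cytosine, in the coding sequence of a tensin of focal adhesions (position 102111472), held 2.14, 4.48 and 13.7 points against 37.1, 38.1 and 30 points at 10 to 66 reads a library. The higher Spsb1 cytosine, in another intronic stretch of the gene, held -20.6, 4.76 and 4.85 points against 36.7, 32.1 and 33.6 points. The U2af1 cytosine, in the gene of a splicing factor, held -6.13, -0.0904 and -6.43 points against 41.9, 7.69 and 25.4 points, and the intergenic cytosine -20.3, 1 and -29.1 points against 38.4, 37.4 and 13.1 points. All 5 of these cytosines except that of Tns2 had at least 1 value below 0 at 4 weeks. The U2af1 and intergenic cytosines were not called without replicate 1 of week 12, and the 5 higher cytosines and that of Rab31 were not called by the Wald test with negative values kept. None of the 10 passed limma's test on the pairs, with adjusted p of at least 0.066 even among cytosines with a level of at least 5%.

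The other strand of the same CpG gives a second reading of a called cytosine from other reads of the same libraries. It was available for 34 lower calls, of which 29 (85.3%) were also lower on the other strand with a median of -6.52 points, and for 16 higher calls, of which 6 (37.5%) were also higher, with a median of -3.19 points. Over all cytosines of 20% to 80% 5mC, the other strand was lower in 59.3% with a median of -1.96 points. Only at Ptger1, an intron of a prostaglandin E receptor, were both cytosines of a CpG called, with the CpG in capitals.
Ptger1 intron, chr8:83669100-83669128, plus strand: gggtcttctctagcCGgactctccgcaat
Its plus-strand cytosine held 16.6, 44.3 and 29.1 points at 4 weeks and -1.75, 7.84 and 6.00 points at 12 weeks, and its minus-strand cytosine 29.6, 40.2 and 36.1 points against 6.65, 13.2 and 20.2 points. The weeks were apart on both strands. Neither cytosine was called by the Wald test with negative values kept. Without replicate 2 of week 4 neither was called, at -19.92 points on the plus and -20.8 points on the minus strand. The minus-strand cytosine had a pooled-read difference of -25.08 points and was also not called without replicate 1 or 2 of week 12.

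The operated limb gives a reading of the same cytosines in separate libraries. Of 253 lower calls with values there, 205 (81.0%) were lower at 12 weeks than at 4 weeks in that limb as well, with a median of -8.30 points. Of 36 higher calls, 13 (36.1%) were higher, with a median of -2.01 points. Of the 10 cytosines shown above, 4 had values there, and the difference was -7.95 points for Arid3a but 10.2 points for Irf2 and 7.17 points for Il10rb, both called lower, and -11.5 points for Tns2, called higher. Over all cytosines of 20% to 80% 5mC in that limb, 59.4% were lower with a median of -2.03 points. The knees of the 2 limbs came from the same mice, and there too week and library pool cannot be told apart.

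**Figure D5:**
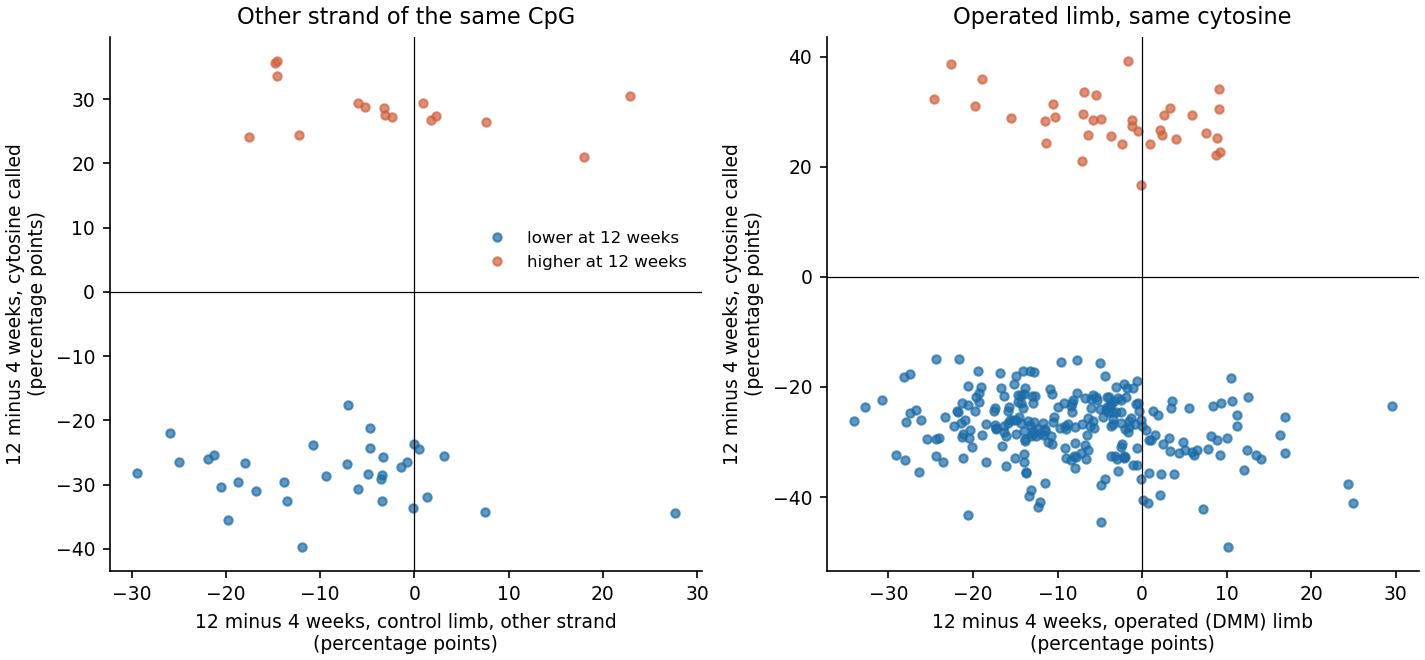
Difference of 5hmC between 12 and 4 weeks in percentage points at called cytosines, against the difference on the other strand of the same CpG (left) and in the operated limb (right), with 1 point per cytosine. Lower calls lie mostly left of 0 in both panels (29 of 34 and 205 of 253), and higher calls are spread over both sides.

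Over all cytosines, the strands agreed most in 1 sample. Pearson's r of 5hmC between strands, across 152638 CpGs, was 0.620 in replicate 2 of week 4, which was the deepest and held the most 5hmC, and 0.101 to 0.268 in the other 5, whose order was not that of their depth. For the difference between weeks it was 0.057. Within a single pair, 68764 cytosines had BS above oxBS at q under 0.05 in that deep sample (568 had BS below oxBS), 500 and 2322 in the other 4-week pairs, and 376, 0 and 0 in the 12-week pairs. In every sample most of the 1175518 cytosines did not pass this test, and among the other 5 samples the counts were not in the order of depth.

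RNA of the enzymes that make 5hmC was counted in the control libraries of other mice. Tet3 held 17.0, 16.9 and 20.2 CPM at 4 weeks and 27.2, 23.4 and 21.9 CPM at 12 weeks, all 12-week libraries above all 4-week libraries (exact permutation p = 0.1, n = 3 and 3). Tet1 held 3.70, 3.87 and 5.22 CPM against 3.77, 2.90 and 4.25 CPM, and Tet2 8.44, 12.4 and 14.0 CPM against 13.6, 10.4 and 11.7 CPM. Both overlapped between weeks.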

How the data were processed

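Cartilage DNA of control and DMM knees was measured by RRoxBS in 24 libraries, and RNA of control knees in 6 libraries that were used. Per the labels and the study's methods, DNA was cut with MspI, libraries were pooled in groups of 6 and split into oxidized (oxBS) and mock-oxidized (BS) parts. Reads were processed with CASAVA 2.17, CUTADAPT and an in-house pipeline, and the submitters' processing notes name Bismark and the build mm10. The deposited methylation files hold the read count (coverage) and the percent of C and T at each cytosine. The deposited RNA files hold raw counts per RefSeq transcript that the authors made with FLEXBAR, STAR and featureCounts, and the transcript with the highest mean stood for a gene. DMM RNA was not used here. The file of 1 DMM BS library of week 12 is named for another replicate than its label, and the label was followed.

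5hmC was BS minus oxBS per pair, with negative values kept. Cytosines were annotated with RefSeq on GRCm38.p6, and 1175513 of 1175518 lay in a CpG of that build. Printed sequences come from the same assembly. Totals of RNA counts were 35284404 to 62737656. Means were compared with exact permutation tests over pairs. Pooled reads were tested by a likelihood ratio test of 5hmC reads (methylated BS reads minus those expected from oxBS, at least 0). Cytosines, gene bodies and promoters were tested per pair with limma 3.58.1 in R 4.3.3 and Benjamini-Hochberg adjustment. The other steps used Python 3 with numpy and scipy. The scripts were tested on simulated data, in which limma on all cytosines recovered hardly any of the changes and on gene bodies few. The spread between pairs in these simulations was set in advance and not taken from the samples. A limma fit on cytosines, gene bodies and promoters with a mean level of at least 5% was added after seeing the data.

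Members and gene lists were chosen with earlier results of these data known. Named were the 5 largest rises and falls among called cytosines with weeks apart, the 5 higher and 5 lower gene bodies and promoters with the smallest p, and the 2 gene bodies of each list with the most cytosines, of which some are not reported here. Samples were grouped by their labels. Each sample is a pool of knees, and the p-values of the permutation tests and of limma measure the spread between these pools. Those of the pooled-read test, the Wald test and the test of BS against oxBS within a pair measure only the counting error of reads. Same-numbered samples of the 2 weeks shared no deviation (r of -0.00227 to 0.00326). Precision is limited by counting error at the lowest coverage and by 3 pairs a week.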

Additional observations from a re-analysis of the deposited data

How the results depend on the processing

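Mean 5hmC was lower at 12 weeks under each of the 12 alternatives. The difference lay between -0.923 and -0.411 points when 1 sample was left out and at -0.564 points with at least 20 reads. It was -0.267 points with negative values set to 0 (exact permutation p = 0.4). With the BS and oxBS levels each weighted by their own reads it was -0.678 points (-14.9%, exact permutation p = 0.4). With the replicate block it was -0.657 points (exact permutation p = 0.25, the smallest possible with 3 pairs). The differences by 5mC class and by place in the genome kept their direction in all 63 alternatives. The count of 397 cytosines called on pooled reads became 54 with at least 20 reads, 2170 at a minimum of 20 points and 21 when BS minus oxBS was tested without setting negative reads to 0. The count was 377 with the replicate block, and 618 to 1410 when 1 sample was left out. With the spread between samples in the test the count was 0, but that version could hardly call any cytosine whatever the spread. Without replicate 1 of week 12, 769 of the 1410 were higher and 641 lower, so that the majority turned. The cause was not tested. limma on cytosines called 264 (63 higher, 201 lower) with negative values set to 0 and 0 under the other 14 alternatives. limma on gene bodies called 0 under all 18. On promoters it called 1, Rln3 (-14.5 points), without replicate 3 of week 12, 0 to 1 when 1 sample was left out, and 0 otherwise. The replicate block changed no other call. Tet2 RNA lay between -1.34 and 1.445 CPM when 1 library was left out and turned without replicate 1 of week 4 (-1.34) and of week 12 (-0.584).

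Differences of named genes that turned were all uncalled. Centred on the mean of each sample they were 0.417 in Adamts2, 0.105 in Col2a1, 1.19 in Comp, 0.745 in Dnmt1, 0.145 in Hoxd3, 0.216 in Pth1r, 0.939 in Runx3 and 1.145 in Wnt5b. Divided by the mean they were 0.219 in Adamts17, 0.376 in Adamts2, 0.876 in Cilp2, 1.10 in Comp, 0.249 in Dnmt1, 0.060 in Hoxa3, 0.291 in Hoxd3, 0.558 in Runx3, 0.312 in Tet3 and 0.458 in Wnt5b. With the BS and oxBS levels each weighted by their own reads, so that coverage enters the value, they were 0.323 in Adamts2, 0.419 in Col2a1, 0.816 in Dnmt1 and 0.128 in Wnt5b. With negative values set to 0, Comp was at 0.249 and Runx3 at 0.241. With at least 20 reads, Wnt5b was at 0.006 and the Pcdh8 promoter at -0.356. When 1 sample was left out, Comp lay between -0.717 and 0.480 (0.480 without replicate 2 of week 4, 0.078 and 0.207 without replicates 1 and 3 of week 12), Runx3 between -0.767 and 0.143 (without replicate 2 of week 12), and Wnt5b between -0.466 and 0.111 (without replicate 2 of week 4). For the 12 cytosines described, 131 alternatives kept the call on pooled reads and 26 lost it. Among those that lost it was the test with the spread between samples for all 12, which could hardly call any cytosine.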

Other observations

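All 19 autosomes had a lower mean at 12 weeks, with changes between -27.9% and -32.7%. The weeks overlapped on chromosomes 2, 5, 8, 14 and 19. Cytosines of the plus strand changed from 2.17 to 1.52 points and those of the minus strand from 2.20 to 1.55 points. Cytosines in soft-masked repeats changed from 2.38 to 1.62 points, and other cytosines from 2.17 to 1.52 points.

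In the operated limb, mean 5hmC over the 1100989 cytosines of all 24 files was 2.33, 2.86 and 2.55 points at 4 weeks and 2.31, 1.74 and 1.98 points at 12 weeks. On the same cytosines the control limb held 1.63, 2.63 and 2.19 points against 1.52, 1.60 and 1.41 points. The differences were -0.572 and -0.643 points, and whether they differ was not tested.

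Sh3pxd2a, a scaffold of podosomes, and Spsb1 each held 3 cytosines called on pooled reads, and no other gene held more. Over all cytosines studied, 0.0284% were called lower and 0.00536% higher, and the number studied in each gene was not taken into account. The Spsb1 cytosines shown above went in opposite directions (-45.5 and 31.8 points). With the spread between samples in the test, 0 cytosines were called, but that version could hardly call any.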
